A study of Arabidopsis thaliana with 18 samples.

Results

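The WRKY genes of Arabidopsis thaliana encode transcription factors named for the amino acids WRKY in their DNA-binding domain. The 58 genes described here were chosen by their locus identifiers alone, out of 37336 gene rows in the count table. A gene was kept when its mean reached 0.5 CPM (counts scaled to a fixed total of reads in genes) in at least 1 of the 7 sample groups, which kept 51. The 7 genes that were not kept were WRKY9, WRKY41, WRKY43, WRKY49, WRKY64, WRKY67 and WRKY72. The gene nearest below the limit was WRKY49, at 0.463 CPM in its highest group, and the nearest above was WRKY63, at 1.12 CPM in C24. WRKY63 was kept through C24 alone, and WRKY30 and WRKY62 through the 2 wild-type C24 groups, so their inclusion already depended on being high there. WRKY31, WRKY36, WRKY51, WRKY55 and WRKY75 also stayed under the limit in both Ler and Ler NahG.

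WRKY proteins bind the W box, a DNA element with the core TTGAC, and many of them are switched on by the defence hormone salicylic acid (SA) through its receptor and co-activator NPR1. The family is sorted by the number of WRKY domains and the type of zinc finger. Group I proteins carry a pair of WRKY domains, group II proteins carry a single domain and are divided into IIa to IIe, and group III proteins have a zinc finger of another type. Several group III and IIa members act in SA defence and leaf senescence, some as activators and some as repressors, and W boxes in WRKY promoters let the factors regulate each other. The 58 chosen genes are a list and not the whole family, and WRKY genes outside the list were not considered. Of the chosen genes, those kept comprised all 10 in group I, all 3 in IIa, 5 of 7 in IIb and 11 of 13 in IIc. They also comprised all 6 in IId, all 7 in IIe and 9 of 12 in group III.

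RNA was sequenced from whole rosettes of 21-day-old plants, grown in 16 h of light at 21 °C, with 6 to 10 plants pooled for each replicate. The first set held wild-type C24 and wild-type Ler, both natural accessions, the hybrid C24 x Ler, and Ler NahG, with n = 3 each. The independent transgenic lines C24 NahG 2 and C24 NahG 3 were sequenced at a later stage and were set by the study against wild-type controls named C24B, with n = 2 each. These 6 libraries are called the later set here. The design text names only the lines as later, so if C24B belonged to the earlier stage, the transgene and the stage cannot be told apart in C24. NahG encodes a bacterial salicylate hydroxylase that turns SA into catechol, so these plants cannot build up SA. Neither the promoter that drives the transgene nor its number of insertions is given in the sources used here, Ler NahG was represented by 1 named line, and transgene reads were not analysed here. Levels are compared within a set only.

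Libraries held 22446656 to 25706088 reads in genes in the first set and 28132721 to 32465711 in the later one. All 5 leaf markers had reads in every library, with summed levels of 22900 to 43600 CPM, and of the 5 root markers only SHR, which shoots also express, was above 1.55 CPM, with RHD6 at 0 throughout. The summed level of 6 floral organ markers was 62.3 to 127 CPM in Ler and Ler NahG and 1.67 to 7.43 CPM in all other libraries. The summed level of 8 shoot apex markers was 51.8 to 57.7 CPM in C24 and 27.9 to 139 in Ler, but 1.28 to 3.71 in the hybrid. In the later set it was 4.94 CPM in C24B replicate 1, 59.0 in C24B replicate 2 and 57.7 to 92.6 in the NahG lines. In such bulk tissue, fewer cells of a type and less RNA per cell cannot be told apart.

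The upstream sequences of WRKY genes are shown because the family is known to regulate itself through W boxes and to respond to SA through TGA factors, which bind elements with the core TGACG. Each is the 300 bases before the gene's annotated start in the RefSeq TAIR10.1 assembly, printed 5′ to 3′ on the gene's own strand. This is the Columbia reference, not C24 or Ler sequence. In the first 2, from WRKY70 (chr3:20910624-20910923, minus strand) and WRKY51 (chr5:25907947-25908246, plus strand), capitals mark TGACG or its reverse complement CGTCA.
WRKY70: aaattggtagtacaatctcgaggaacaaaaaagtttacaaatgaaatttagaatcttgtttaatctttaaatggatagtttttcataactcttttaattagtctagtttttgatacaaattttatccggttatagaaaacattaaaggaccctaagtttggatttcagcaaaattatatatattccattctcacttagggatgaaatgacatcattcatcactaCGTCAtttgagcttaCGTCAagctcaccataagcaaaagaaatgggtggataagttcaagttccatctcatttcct
WRKY51: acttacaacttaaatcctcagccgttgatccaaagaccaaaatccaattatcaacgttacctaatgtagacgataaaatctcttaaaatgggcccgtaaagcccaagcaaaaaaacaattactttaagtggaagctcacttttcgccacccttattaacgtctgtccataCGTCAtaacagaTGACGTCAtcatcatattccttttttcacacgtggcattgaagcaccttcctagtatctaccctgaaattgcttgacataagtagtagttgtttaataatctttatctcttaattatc
In the next 3, from WRKY33 (chr2:16107935-16108234, plus strand), WRKY53 (chr4:12393983-12394282, minus strand) and WRKY62 (chr5:352096-352395, minus strand), capitals mark the W box TTGACC or TTGACT or its reverse complement.
WRKY33: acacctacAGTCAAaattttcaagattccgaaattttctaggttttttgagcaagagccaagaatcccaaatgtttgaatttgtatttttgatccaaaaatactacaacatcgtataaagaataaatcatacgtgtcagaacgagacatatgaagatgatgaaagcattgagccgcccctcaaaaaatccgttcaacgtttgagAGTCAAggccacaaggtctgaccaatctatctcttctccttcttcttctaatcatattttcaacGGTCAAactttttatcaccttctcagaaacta
WRKY53: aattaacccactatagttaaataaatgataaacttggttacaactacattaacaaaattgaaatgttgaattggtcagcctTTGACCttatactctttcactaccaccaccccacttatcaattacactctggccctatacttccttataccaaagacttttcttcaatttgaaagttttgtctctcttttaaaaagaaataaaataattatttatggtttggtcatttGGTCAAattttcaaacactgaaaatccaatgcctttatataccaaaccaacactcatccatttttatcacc
WRKY62: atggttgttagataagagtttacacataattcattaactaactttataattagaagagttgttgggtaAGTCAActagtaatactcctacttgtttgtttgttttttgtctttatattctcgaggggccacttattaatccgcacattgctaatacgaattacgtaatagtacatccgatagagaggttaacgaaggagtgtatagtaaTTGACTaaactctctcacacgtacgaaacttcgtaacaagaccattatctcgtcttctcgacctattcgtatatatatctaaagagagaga
The window of WRKY54 (chr2:17002529-17002828, minus strand) held neither motif.
WRKY54: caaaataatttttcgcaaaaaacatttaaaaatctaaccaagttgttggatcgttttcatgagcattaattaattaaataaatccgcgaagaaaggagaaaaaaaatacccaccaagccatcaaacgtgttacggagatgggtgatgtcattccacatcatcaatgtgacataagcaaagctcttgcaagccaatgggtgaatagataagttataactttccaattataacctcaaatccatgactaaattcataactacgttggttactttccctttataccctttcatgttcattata

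WRKY70 held 2 TGACG cores, 72 and 57 bases before the start, and WRKY51 held 3, of which those 114 and 111 bases before the start overlap on opposite strands. WRKY33 held 3 W boxes, at 287, 91 and 27 bases, and WRKY53 and WRKY62 held 2 each. Among all 27443 windows of protein-coding genes, 32.3% held a W box and 21.3% held TGACG. Of the 51 kept WRKY genes 21 held a W box (41.2%) and 11 held TGACG (21.6%). The W box was searched as these 6-base forms and TGACG as 5 bases, both on both strands. A match describes letters in this window and says nothing about binding.

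The question put by NahG in Ler was which family members depend on SA in that accession. In Ler NahG 3 of the 51 kept genes were lower than in Ler and none was higher, with 0.502% of all 20325 genes tested called lower, 0.0886% higher and 0.59% in either direction. Here and below, called means an adjusted p under 0.05 in edgeR's quasi-likelihood test, with Benjamini-Hochberg adjustment over all genes tested. All 3 belong to group III: WRKY70 and WRKY54, related factors known to act together as regulators of SA signalling and as repressors of leaf senescence, and WRKY38, a repressor of basal defence. The median log2 difference of the 51 genes was -0.02, against 0 over all genes. Of the 51, 12 had an unadjusted p under 0.05, but the share of all genes under that limit was not counted.

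WRKY70 (AT3G56400) stood at 107, 30.4 and 57.3 CPM in the Ler libraries and at 1.19, 1.37 and 1.94 CPM in Ler NahG. The groups were far apart, although the Ler libraries also differed widely from each other. The log2 fold change was -5.42 ± 0.54 (SE, adjusted p = 0.00049). WRKY54 (AT2G40750) fell from 19.0, 6.75 and 8.49 CPM to 0.0824, 0.229 and 0.0845 CPM, a log2 fold change of -6.40 ± 0.585 (adjusted p = 0.00025). WRKY38 (AT5G22570) had 44 reads over the Ler libraries and 0 over those of Ler NahG, which makes it at least 14-fold lower when 3 counts per group are taken as the floor (adjusted p = 0.019). Its call ended when any 1 Ler NahG library was left out, with adjusted p between 0.062 and 0.072, while WRKY54 and WRKY70 held under all 11 alternatives tried.

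The members that missed the threshold in Ler included others tied to SA. WRKY46, a group III factor that acts with WRKY70 and WRKY53 in basal resistance, was at 5.86, 2.01 and 5.04 CPM in Ler and at 1.07, 0.916 and 1.69 in Ler NahG, a log2 difference of -1.80 ± 0.363 (adjusted p = 0.058). WRKY33, the group I factor that drives camalexin synthesis and resistance to necrotrophic fungi, differed by -1.13 ± 0.287 (adjusted p = 0.17). DESeq2 called these 2 genes as well, and so did the main test without Ler replicate 2. For WRKY51 the Ler libraries held 26 reads and those of Ler NahG 2, 12.4-fold apart (counting interval 3.12 to 108) (adjusted p = 0.13).

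**Figure D1:**
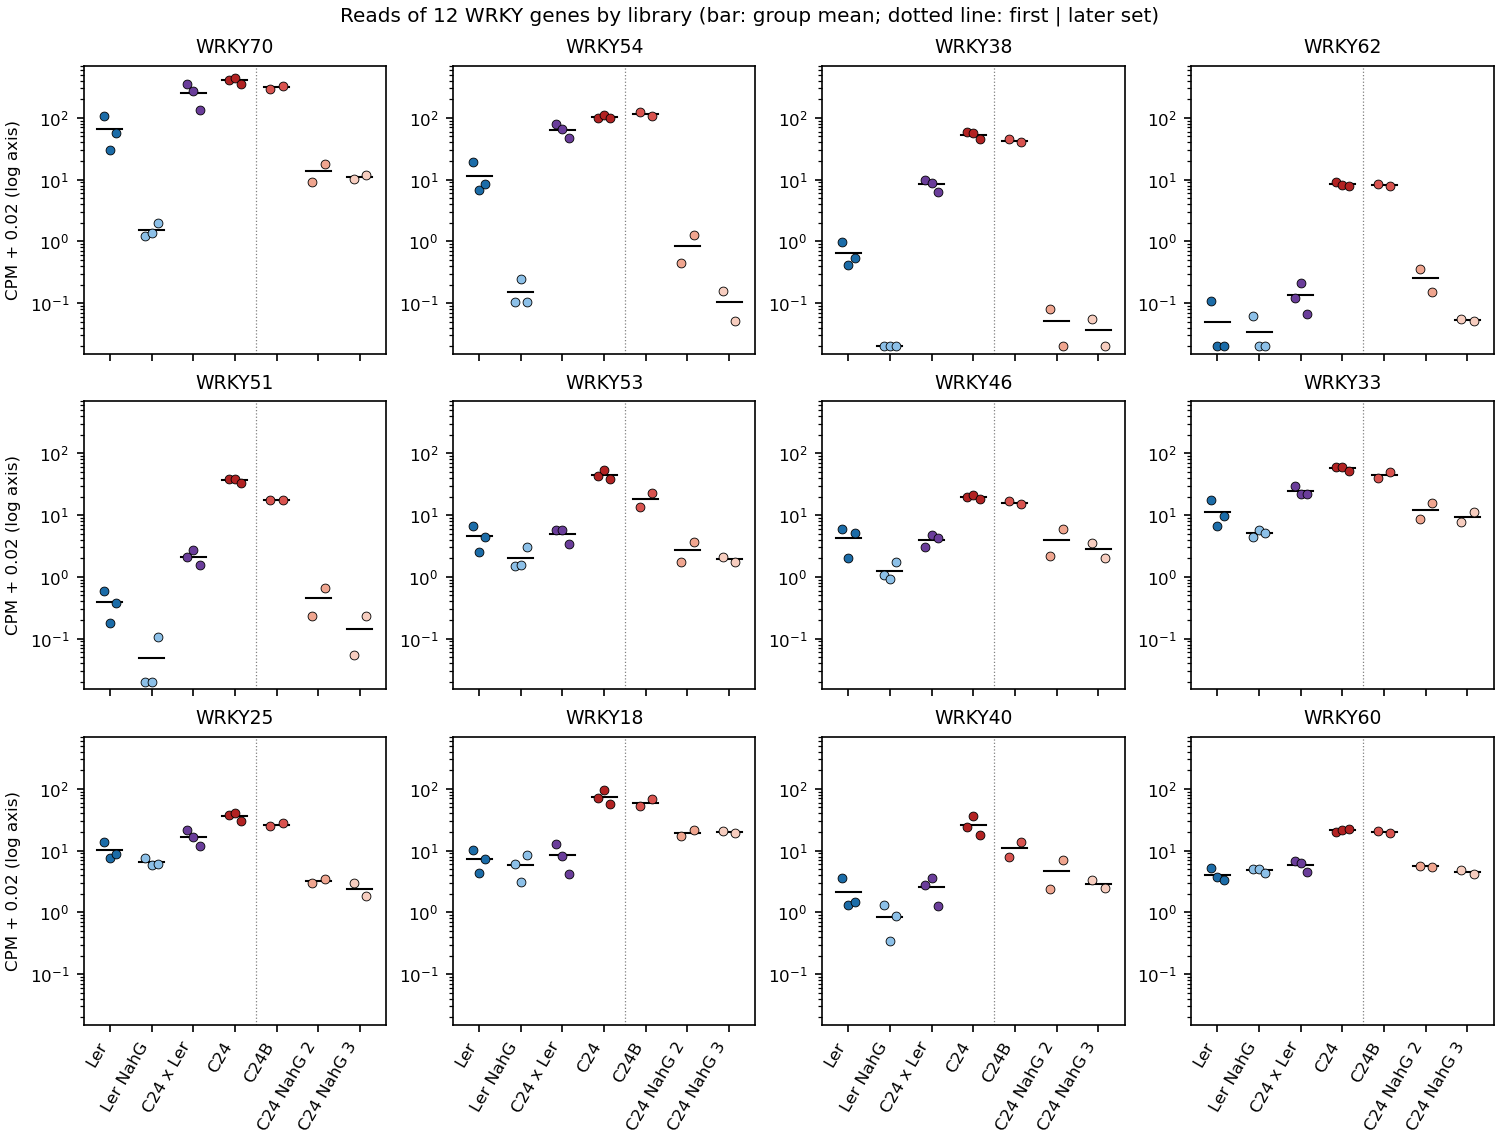
CPM of 12 WRKY genes (log axis, 0.02 CPM added) in each library of the 7 groups, with bars at the group means and a dotted line between the first and the later set. WRKY70, WRKY54 and WRKY38 are low in all 3 NahG groups, and in the hybrid WRKY70 and WRKY54 lie above every Ler library whereas WRKY18, WRKY46 and WRKY53 lie close to Ler.

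In C24 the same question was asked with 2 independent lines. Line 2 had 16 of 50 tested members lower and none higher than C24B, with 7.1% of 20112 genes called lower and 8.21% in either direction. Line 3 had 18 lower and 1 higher, with 8.16% of genes called lower, 2.09% higher and 10.3% in either direction. The lines were compared with the same 2 C24B libraries, so their lists are not independent, and the 16 genes lower in both are given below with each line's own value. They comprised 7 of the 8 tested group III genes (WRKY30, WRKY38, WRKY46, WRKY53, WRKY54, WRKY62 and WRKY70), WRKY18 and WRKY60 of IIa, WRKY25 and WRKY33 of group I, WRKY6 of IIb, WRKY50, WRKY51 and WRKY75 of IIc, and WRKY15 of IId. WRKY30 and WRKY62 reached the level limit in the wild-type C24 groups alone. Their lower level in the lines, and their part in these counts, thus partly followed from how they were kept. No group IIe gene was called by edgeR as described or by DESeq2. An unadjusted p under 0.05 was seen for 2 of 7 in line 3 and 0 in line 2, again without a share over all genes. The edgeR test did call WRKY14 in line 3 with no filter on low counts, and called IIe genes in both lines without C24B replicate 2: WRKY14 and WRKY35 in each, and WRKY22 in line 3. Of all genes tested, 6.29% were lower and 0.875% higher in both lines. With both lines averaged, 22 members were lower and 1 higher, against 10.3% and 2.85% of all genes. In line 2 the calls of 11 members held under all 9 alternatives and those of WRKY6, WRKY30, WRKY46, WRKY50 and WRKY75 did not. In line 3 11 held, and WRKY6, WRKY7, WRKY30, WRKY31, WRKY44, WRKY46, WRKY50 and WRKY53 were each lost in at least 1.

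Among group III genes the largest differences were those of WRKY38, WRKY54 and WRKY62, the last a close relative of WRKY38 that also acts as a repressor of defence. WRKY38 was at 45.0 and 40.8 CPM in C24B, with 2 reads in all of line 2 and 1 in line 3 against 2435 reads in C24B. The ratios were 1360 (counting interval 375 to 11200) and 2630 (472 to 104000). WRKY54 went from 123 and 109 CPM to 0.43 and 1.23 in line 2 and to 0.137 and 0.0308 in line 3. Its log2 fold changes were -7.13 ± 0.36 (adjusted p = 5.9e-05) and -10.41 ± 0.475 (adjusted p = 4e-05), so few of its reads remained. WRKY62 (AT5G01900) fell from 8.41 and 7.84 CPM to 0.338 and 0.129 in line 2, a log2 fold change of -5.09 ± 0.416, and to 2 reads in line 3, where 462 reads were counted in C24B.

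WRKY70 was also far below its controls in both lines. It stood at 296 and 329 CPM in C24B, at 9.15 and 18 in line 2 and at 10.3 and 11.7 in line 3, with log2 fold changes of -4.53 ± 0.308 (adjusted p = 0.00017) and -4.82 ± 0.314 (adjusted p = 0.00012). WRKY53, an activator of leaf senescence, went from 13.4 and 22.8 CPM to 1.72 and 3.71 in line 2 and 2.06 and 1.75 in line 3. Its log2 fold changes were -2.74 ± 0.391 (adjusted p = 0.0049) and -3.25 ± 0.405 (adjusted p = 0.0024). WRKY46 (AT2G46400) went from 17.0 and 14.9 CPM to 2.15 and 5.87 and to 3.49 and 2.03, with log2 fold changes of -2 ± 0.438 (adjusted p = 0.032) and -2.53 ± 0.452 (adjusted p = 0.012). The libraries of WRKY53 and WRKY46 did not overlap between controls and transgenic plants, and how many of all genes separate in this way was not counted. WRKY30, a gene of low level here, differed by -2.72 ± 0.592 and -2.39 ± 0.579. Its call was lost in 4 of 9 alternatives in each line. These included leaving out C24B replicate 2 or either library of the line.

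Group IIa holds 3 genes, WRKY18, WRKY40 and WRKY60, whose proteins pair with each other and act in concert in defence. WRKY18 (AT4G31800) was at 52.0 and 68.2 CPM in C24B, 17.1 and 21.3 in line 2 and 20.9 and 19.1 in line 3. Its log2 fold changes were -1.65 ± 0.173 (adjusted p = 0.0012) and -1.59 ± 0.173 (adjusted p = 0.0013). WRKY60 (AT2G25000) went from 20.6 and 19.0 CPM to 5.56 and 5.51 and to 4.87 and 4.18, with log2 fold changes of -1.83 ± 0.159 and -2.13 ± 0.161. Replicates of these genes lay close together beside differences of this size. WRKY40 (AT1G80840) was at 7.78 and 14.0 CPM in C24B, 2.37 and 7.03 in line 2 and 3.32 and 2.46 in line 3. It did not pass in either line (adjusted p = 0.19 and 0.054) and passed when both lines were averaged, with a log2 fold change of -1.57 ± 0.407 (adjusted p = 0.044). The averaged call was lost in 4 of 10 alternatives (adjusted p up to 0.17), whereas in line 3 WRKY40 passed with DESeq2 (adjusted p = 0.002), with no filter, with a replicate block, with the compared groups alone and without either C24B library.

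The group I genes that fell were WRKY33 and WRKY25, a pair of related factors, and 7 of the other 8 group I genes were not called in either line. WRKY25 (AT2G30250) went from 25.0 and 27.6 CPM to 2.98 and 3.51 in line 2 and 2.98 and 1.81 in line 3, with log2 fold changes of -3.02 ± 0.238 (adjusted p = 0.00031) and -3.46 ± 0.246 (adjusted p = 0.00016). WRKY33 (AT2G38470) went from 40.6 and 49.1 CPM to 8.76 and 15.5 and to 7.74 and 11.2, with log2 fold changes of -1.89 ± 0.284 (adjusted p = 0.0066) and -2.24 ± 0.289 (adjusted p = 0.0028). In group IIc, WRKY51 and WRKY50, which mediate the repression of jasmonate defence in plants low in oleic acid, both fell. WRKY51 (AT5G64810) went from 17.4 and 17.5 CPM to 0.215 and 0.645 in line 2 and 0.0343 and 0.215 in line 3. WRKY50 (AT5G26170) differed by -1.47 ± 0.295 and -1.50 ± 0.296. Its call was lost in 4 of 9 alternatives in line 2 and 3 of 9 in line 3. These included leaving out C24B replicate 1 or either library of the line.

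WRKY75, a regulator of phosphate starvation responses and an activator of senescence, was at 2.80 and 4.18 CPM in C24B and at 0.43 and 0.806 in line 2, a log2 fold change of -2.5 ± 0.587 (adjusted p = 0.042). In line 3 it had 3 reads against 203, a ratio of 73.2 (counting interval 24.7 to 358). WRKY6, a group IIb factor linked to senescence and pathogen responses, went from 13.2 and 21.3 CPM to 5.74 and 7.16 and to 4.59 and 3.01. Its log2 fold changes were -1.42 ± 0.288 (adjusted p = 0.023) and -2.19 ± 0.299 (adjusted p = 0.0037). WRKY15 (AT2G23320) differed by -1.10 ± 0.133 and -1.09 ± 0.133. WRKY31 and WRKY7 passed as lower in line 3 and not in line 2, a difference between lines that was not tested, and WRKY44, also known as TTG2, a regulator of trichome and seed coat development, was higher there. WRKY44 (AT2G37260) stood at 2.18 and 4.18 CPM in C24B and 7.23 and 12.1 in line 3, a log2 fold change of 1.60 ± 0.365 (adjusted p = 0.033), and its call was lost on leaving out either line 3 library.

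**Figure D2:**
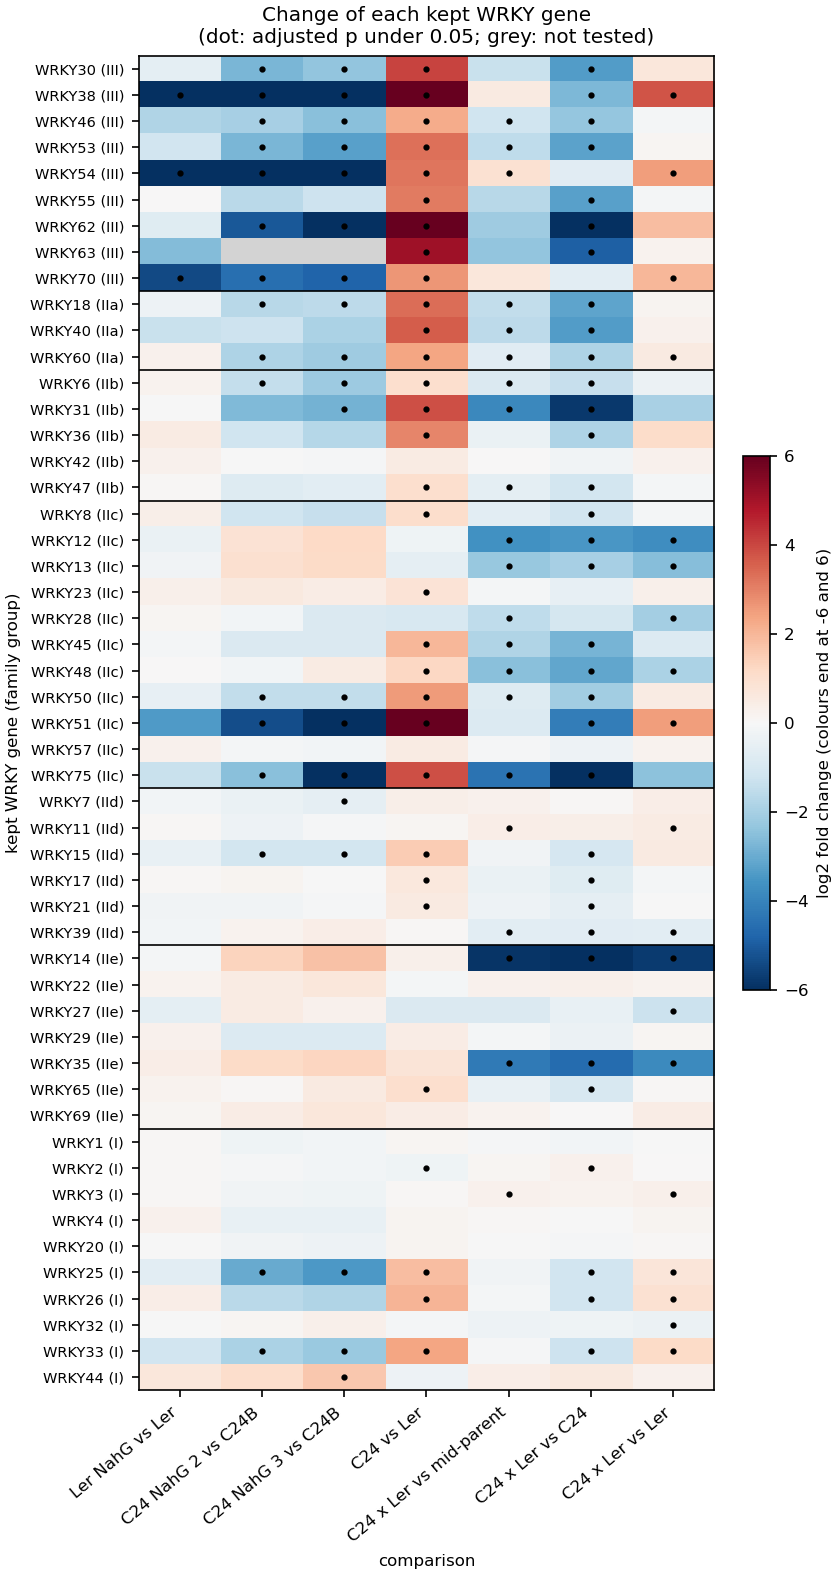
Log2 fold change (colour, ending at -6 and 6) of the 51 kept WRKY genes, in rows by family group, under 7 comparisons in columns, with dots at adjusted p under 0.05 and grey where a gene was not tested. Tested group III and IIa rows are blue under the C24 NahG lines and red in C24 against Ler, and WRKY14 and WRKY35 of IIe are blue in the hybrid.

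Leaving out C24B replicate 2, so that replicate 1 stood alone for the controls, gave 15 members lower and 6 higher in line 2, with 17 lower and 8 higher in line 3. The added rises included WRKY12, WRKY13, WRKY14, WRKY35 and WRKY48. C24B replicate 1 was the control library low in shoot apex markers, at 4.94 CPM beside 59.0. WRKY12, for example, was at 0.701 CPM in it and at 7.94 in replicate 2, against 7 to 13.3 in the NahG libraries. Without replicate 1 line 2 had 19 lower and 0 higher, and line 3 had 19 lower and 1 higher. Shares over all genes were not counted for these refits, so the member counts cannot be set against a background. The part of the apex in these differences was not tested.

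Whether NahG acted differently in the accessions was tested in 1 fit of all 18 libraries, with each effect taken within its own set. Of 51 members 7 differed, all with a more negative effect in C24, where 6.78% of 21061 genes were called in that direction and 8.8% in either. They were WRKY60, WRKY25, WRKY6, WRKY4, WRKY26, WRKY8 and WRKY53. WRKY60 showed a difference of effects of -2.22 ± 0.235 (adjusted p = 6.3e-05), from 4.06 CPM in Ler and 4.80 in Ler NahG. WRKY25 differed by -2.58 ± 0.354 (adjusted p = 0.00043) and WRKY6 by -2 ± 0.353 (adjusted p = 0.0026). WRKY26, a relative of WRKY25 and WRKY33 that acts with them in heat tolerance, differed by -2.09 ± 0.458, and WRKY4, a group I factor of resistance to necrotrophs, by -0.71 ± 0.157. These 5 held under all 16 alternatives, and the calls of WRKY8 and WRKY53 did not.

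For the 3 genes called in Ler NahG, the difference of effects did not pass in edgeR. The difference was 0.76 ± 0.658 for WRKY70 (adjusted p = 0.49) and -2.34 ± 1.34 for WRKY54 (adjusted p = 0.28). For WRKY38, with 0 reads in Ler NahG, the size of the difference cannot be estimated (adjusted p = 0.94). DESeq2 did call 2 of the 3, WRKY54 at -2.3 (adjusted p = 0.03) and WRKY38 (adjusted p = 0.024), both with the more negative effect in C24, so whether they differ depends on the tool. All 3 genes were also among the 16 lower in the C24 lines, 3 of 3 and 3 of 16. Over all genes, 102 were lower in Ler NahG and 1266 in both C24 lines. Of the 19547 genes tested in both sets, 92 (0.471%) were lower in all 3 NahG groups. Most genes lower in Ler NahG were thus lower in C24 too, and the overlap is not particular to WRKY genes. WRKY46 differed by -0.45 ± 0.576 (adjusted p = 0.65). The count of 7 rose to 16 without Ler replicate 1, and to 11 with DESeq2.

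**Figure D3:**
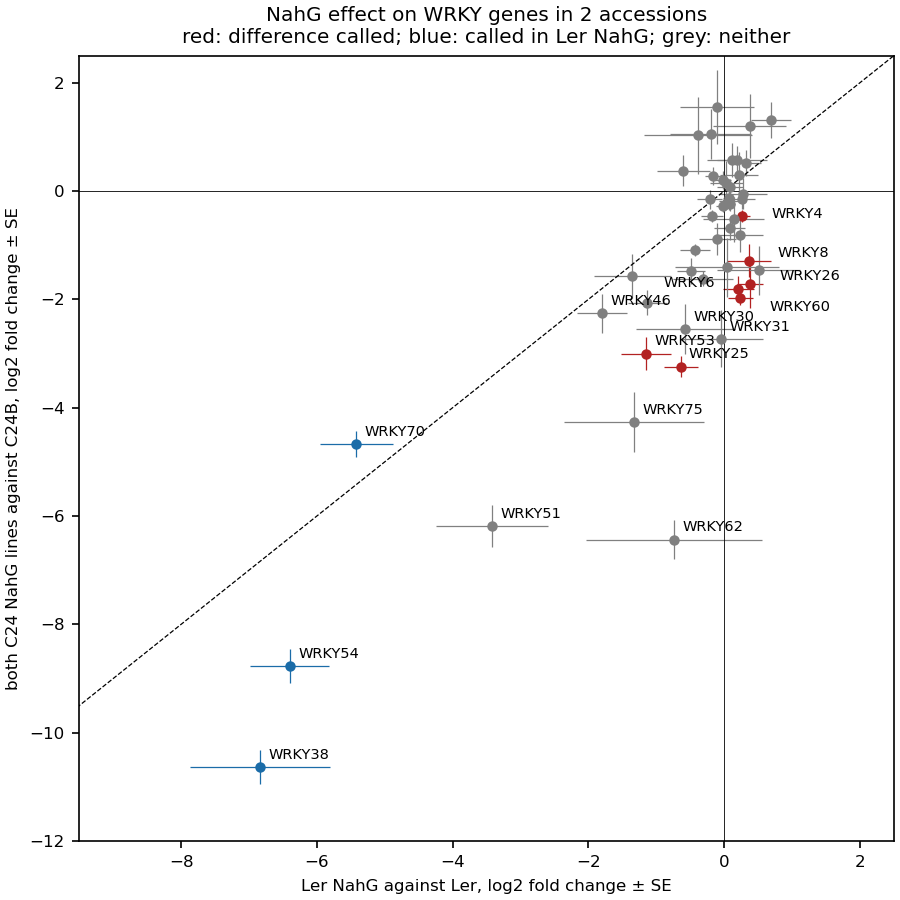
Log2 fold change ± SE of each WRKY gene in Ler NahG against Ler (horizontal) and in both C24 NahG lines together against C24B (vertical), with a dashed line of equal effects. WRKY70, WRKY54 and WRKY38 lie at the lower left, and the 7 genes in red, among them WRKY60 at -1.98 in C24 and 0.24 in Ler, passed the test of the difference.

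The parents themselves differed in most of the kept members. In C24 30 of 51 members were higher than in Ler and 1 was lower, with 22.6% of 20325 genes called higher, 19.8% lower and 42.5% in either direction. All 9 group III genes, all 3 of IIa, 4 of 5 in IIb and 7 of 11 in IIc were higher in C24, against 3 of 10 in group I, 3 of 6 in IId and 1 of 7 in IIe. The level limit itself bears on these counts, because 8 members reached it in neither Ler nor Ler NahG and so had to be high elsewhere. Of the 43 members that did reach it there, a subset taken after the values were seen, 22 were higher in C24 and 1 lower. These included 5 of 5 in group III, 3 of 3 in IIa, 2 of 3 in IIb and 5 of 9 in IIc. The median log2 difference was 3.34 in IIa, 0.13 in group I and, over those 5 genes, 3.20 in group III, beside -0.01 over all genes. All 16 genes lower in the C24 NahG lines, which were compared with other C24 libraries, were higher in C24, as were 14 of the 35 other members. Among members that reached the limit in Ler or Ler NahG these were 12 of 12 and 10 of 31. The same share over all genes lower in both lines was not counted, so this overlap is not shown to be particular to WRKY genes. The calls of WRKY2, WRKY8, WRKY17 and WRKY21 were lost in at least 1 of 11 alternatives, and the other 27 held in all.

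WRKY70 was at 413, 450 and 349 CPM in C24 and at 107, 30.4 and 57.3 in Ler, a log2 difference of 2.64 ± 0.426 (adjusted p = 0.00037). WRKY54 was at 101, 111 and 101 CPM in C24 and differed by 3.20 ± 0.331 (adjusted p = 1.2e-05). No library of Ler reached the lowest of C24 for either gene, a separation that was not counted over all genes. WRKY38 was at 59.4, 55.9 and 45.7 CPM in C24 and at 0.939, 0.395 and 0.516 in Ler, a log2 difference of 6.45 ± 0.281 (adjusted p = 1e-07). WRKY51 was at 38.7, 39.2 and 33.6 CPM against 0.581, 0.158 and 0.357, and differed by 6.67 ± 0.335 (adjusted p = 3.9e-08). Both genes were under 1 CPM in every Ler library. WRKY62 had 637 reads in C24 and 2 in Ler, a ratio of 302 (counting interval 83.3 to 2500), and WRKY63 had 86 against 2, a ratio of 40.8 (11 to 342). WRKY63 lies beside its close copies WRKY64 and WRKY67, so its reads are uncertain.

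WRKY53 (AT4G23810) was at 42.7, 53.2 and 38.3 CPM in C24 and at 6.62, 2.49 and 4.45 in Ler, a log2 difference of 3.31 ± 0.336 (adjusted p = 9.9e-06). WRKY46 was at 19.8, 21.3 and 18.5 CPM against 5.86, 2.01 and 5.04, and differed by 2.21 ± 0.319 (adjusted p = 0.00016). WRKY30 (AT5G24110) differed by 4.07 ± 0.554, from 4.86, 3.88 and 3.45 CPM in C24. In group IIa, WRKY18 stood at 70.1, 95.6 and 56.8 CPM in C24 and at 10.4, 4.38 and 7.34 in Ler (log2 difference 3.34 ± 0.443, adjusted p = 8.4e-05). WRKY40 was at 23.8, 37.0 and 17.9 CPM against 3.62, 1.30 and 1.47 (3.63 ± 0.484, adjusted p = 8.6e-05), and WRKY60 differed by 2.39 ± 0.178. The parents did not overlap for any of these 6 genes, and how many of all genes separate in this way was not counted. The single member lower in C24 was WRKY2, a group I factor of seed germination and the first zygotic division, at 20.6, 20.1 and 20.1 CPM against 23.4, 25.2 and 24.2, a log2 difference of -0.26 ± 0.0816 (adjusted p = 0.023). Its call was lost in 5 of 11 alternatives.

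The hybrid was compared with the mid-parent, the mean of its parents on the log scale, to find members that depart from that mean. Where the parents differ, it lies below the linear mean, against which no test was made. A member not called here can therefore still lie far below the linear mid-parent. WRKY51, for example, was not called, while its hybrid mean of 2.09 CPM was 0.111 of the linear mid-parent of 18.8. Of 51 members 18 were below the mid-parent and 3 above, with 11.5% of 20325 genes called below, 15.5% above and 27.1% in either direction. Those below included all 3 genes of IIa, 7 of 11 in IIc (WRKY12, WRKY13, WRKY28, WRKY45, WRKY48, WRKY50 and WRKY75), 3 of 5 in IIb (WRKY6, WRKY31 and WRKY47), WRKY46 and WRKY53 of group III, WRKY14 and WRKY35 of IIe, and WRKY39 of IId. Those above were WRKY54, WRKY11 and WRKY3. Of the 16 genes lower in the C24 NahG lines, 7 were below the mid-parent and 1 was above. Of the 35 other members 11 were below and 2 above, and all genes lower in both lines were not counted in this way. Against C24 itself 32 members were lower and 1, WRKY2, higher, with 19.3% of all genes lower, 17.2% higher and 36.6% in either direction. Against Ler 9 were lower and 10 higher, with 14.4% of all genes lower, 15.8% higher and 30.3% in either direction. The level limit bears on these counts too. WRKY30, WRKY31, WRKY36, WRKY55, WRKY62, WRKY63 and WRKY75 reached it only in groups of the C24 background. Their lower level in the hybrid than in C24 thus partly followed from how they were kept. That holds also for the mid-parent calls of WRKY31 and WRKY75. The median log2 difference from the mid-parent was -0.45 over the members and -0.01 over all genes. Only 10 of the 21 calls held under all 14 alternatives (WRKY14, WRKY31, WRKY35, WRKY39, WRKY45, WRKY48, WRKY50, WRKY53, WRKY60 and WRKY75), and 11 remained without hybrid replicate 1.

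Members that were high in C24 took different positions in the hybrid, although differences between genes were not tested. WRKY70 was at 360, 277 and 135 CPM, above every Ler library, with replicate 1 within the range of C24 and the other two between the parents. It was above Ler by 1.99 ± 0.416 on the log2 scale (adjusted p = 0.0044), while its difference from C24 of -0.65 ± 0.401 did not pass (adjusted p = 0.23). WRKY54, at 79.9, 66.2 and 47.0 CPM, was above Ler by 2.5 ± 0.324 (adjusted p = 0.00021) and differed from C24 by -0.70 ± 0.3 (adjusted p = 0.09), a difference that passed with a replicate block (adjusted p = 0.041) and with the compared groups alone (adjusted p = 0.0078). Hybrid libraries of WRKY54 lay between the parents, all above the highest Ler library and below the lowest of C24. It exceeded the mid-parent by 0.90 ± 0.256 (adjusted p = 0.023), a call lost without hybrid replicate 1 or 2, and on a linear scale its mean of 64.3 CPM was 1.11 times the mid-parent of 57.9. WRKY70 differed from the mid-parent by 0.67 ± 0.34 (adjusted p = 0.17), and its linear mean of 257 CPM was 1.1 times the mid-parent of 234.

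WRKY18, WRKY40, WRKY46 and WRKY53 stood instead near Ler. WRKY18 was at 12.9, 8.09 and 4.09 CPM in the hybrid, below C24 by -3.16 ± 0.441 on the log2 scale (adjusted p = 0.00028) and 0.18 ± 0.441 from Ler (adjusted p = 0.79). WRKY53 was at 5.62, 5.75 and 3.38 CPM, with -3.19 ± 0.336 against C24 (adjusted p = 3.9e-05) and 0.13 ± 0.344 against Ler (adjusted p = 0.81). Their hybrid libraries overlapped those of Ler and none reached the lowest C24 library. WRKY46 was at 3.01, 4.68 and 4.32 CPM, with -2.31 ± 0.323 against C24 and -0.10 ± 0.328 against Ler. WRKY40 was at 2.76, 3.61 and 1.27 CPM, with -3.37 ± 0.479 against C24 and 0.27 ± 0.506 against Ler. Against the mid-parent the differences were -1.49 ± 0.392 for WRKY18 (adjusted p = 0.017), -1.55 ± 0.438 for WRKY40 (adjusted p = 0.022), -1.20 ± 0.291 for WRKY46 (adjusted p = 0.011) and -1.53 ± 0.303 for WRKY53 (adjusted p = 0.0046). The call of WRKY53 held under all 14 alternatives, and those of the other 3 were lost on leaving out 1 hybrid library.

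Another set lay between the parents. WRKY33, at 29.9, 21.8 and 21.7 CPM, was above Ler by 1.13 ± 0.269 (adjusted p = 0.0087), below C24 by -1.24 ± 0.261 (adjusted p = 0.0035) and -0.05 ± 0.228 from the mid-parent (adjusted p = 0.9). WRKY25, at 21.2, 16.8 and 11.9 CPM, differed from the mid-parent by -0.21 ± 0.207 (adjusted p = 0.51), and WRKY26 by -0.11 ± 0.16. WRKY25 and WRKY26 were also called against both parents, so all 3 related genes were intermediate, although the call of WRKY25 against Ler (0.72 ± 0.242, adjusted p = 0.043) was lost in 6 of 11 alternatives. WRKY38 was at 9.96, 8.92 and 6.30 CPM, above Ler by 3.78 ± 0.285 and below C24 by -2.68 ± 0.212. Its difference from the mid-parent was 0.55 ± 0.21 on the log scale (adjusted p = 0.082), whereas on a linear scale its mean of 8.39 CPM was 0.309 of the mid-parent of 27.1, so its direction depends on the scale. WRKY51, at 2.04, 2.68 and 1.55 CPM, was above Ler by 2.53 ± 0.375 and below C24 by -4.15 ± 0.274. WRKY11 and WRKY3 do not belong to this set, as their hybrid means were above those of both parents. WRKY11 was at 64.1, 56.0 and 42.3 CPM, beside means of 41.9 in C24 and 39.1 in Ler. WRKY3 was at 48.9, 52.9 and 44.7 CPM, beside means of 42.4 and 40.1. They exceeded the mid-parent by 0.42 ± 0.119 (adjusted p = 0.023) and 0.25 ± 0.0748 (adjusted p = 0.03). These calls were lost in 2 and 6 of 14 alternatives, and neither gene was called against C24.

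**Figure D4:**
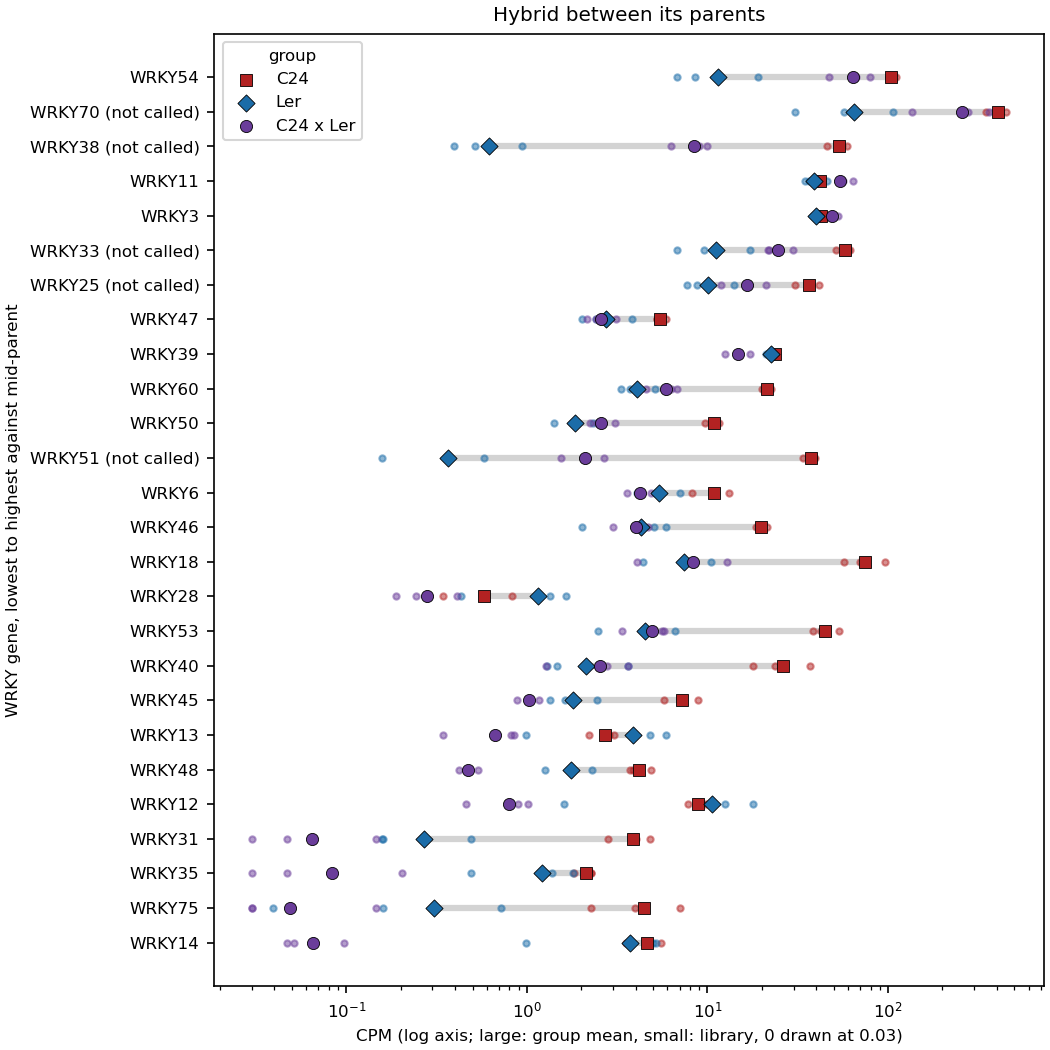
Levels in CPM (log axis) of 26 WRKY genes in C24, Ler and the hybrid, with large symbols for group means, small symbols for libraries, 0 drawn at 0.03, and genes ordered by their difference from the mid-parent. WRKY54 and WRKY70 in the hybrid lie above every Ler library, WRKY18 and WRKY53 near Ler, and WRKY14 and WRKY35 below both parents.

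In the hybrid 6 members were below both parents and none above both, where 4.46% of genes were called below both, 3.9% above both and 8.36% outside both in either direction. They were WRKY12, WRKY13 and WRKY48 of IIc, WRKY39 of IId and WRKY14 and WRKY35 of IIe. WRKY14 (AT1G30650) was at 0.0511, 0.0975 and 0.047 CPM in the hybrid, at 4.74, 3.56 and 5.50 in C24 and at 0.984, 5.02 and 5.16 in Ler. Its difference from the mid-parent was -5.88 ± 0.871 (adjusted p = 0.00094), so it was close to absent from the hybrid libraries. WRKY35 (AT2G34830) differed by -4.22 ± 0.742 (adjusted p = 0.0026). WRKY12 and WRKY13, which act in opposite directions on flowering time and also in stem cell wall formation, were at 0.459, 1.02 and 0.893 CPM and at 0.817, 0.341 and 0.846 CPM in the hybrid. They differed from the mid-parent by -3.61 ± 0.947 (adjusted p = 0.016) and -2.27 ± 0.644 (adjusted p = 0.023), and both calls were lost on leaving out any 1 hybrid library.

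WRKY12, WRKY13, WRKY14 and WRKY35 were low in the libraries that were low in the 8 shoot apex markers. Those were the hybrid libraries at 1.28, 2.63 and 3.71 CPM of summed markers, C24B replicate 1 at 4.94, Ler NahG replicate 2 at 26.5 and Ler replicate 1 at 27.9. WRKY12 (AT2G44745) was at 0.459 to 1.02, 0.701, 0.825 and 1.61 CPM in these libraries in that order. It was at 7.17 to 17.8 CPM in the other libraries of the first set and at 7 to 13.3 in those of the later set. In every library 7 or 8 of the 8 markers had reads. WRKY48 (AT5G49520) was at 0.459, 0.536 and 0.423 CPM in the hybrid, 4.86, 3.88 and 3.70 in C24 and 2.28, 1.26 and 1.75 in Ler, where replicate 1, low in the markers, was the highest of the 3. In the later set it was lowest in C24B replicate 1, also low in the markers, at 2.84 CPM beside 9.18 in replicate 2 and 5.07 to 10.2 in the NahG lines. Its difference of -2.5 ± 0.258 (adjusted p = 8.5e-05) held under all 14 alternatives. WRKY39 (AT3G04670) was at 17.1, 14.6 and 12.5 CPM beside 23.4 to 24 in C24 and 21.2 to 23.2 in Ler, and differed by -0.65 ± 0.106 (adjusted p = 0.0018). It too was lowest of the later set in C24B replicate 1, at 20 CPM beside 29.8 in replicate 2 and 26.5 to 34.9 in the NahG lines. How much of these differences lay in the amount of apex tissue was not tested.

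**Figure D5:**
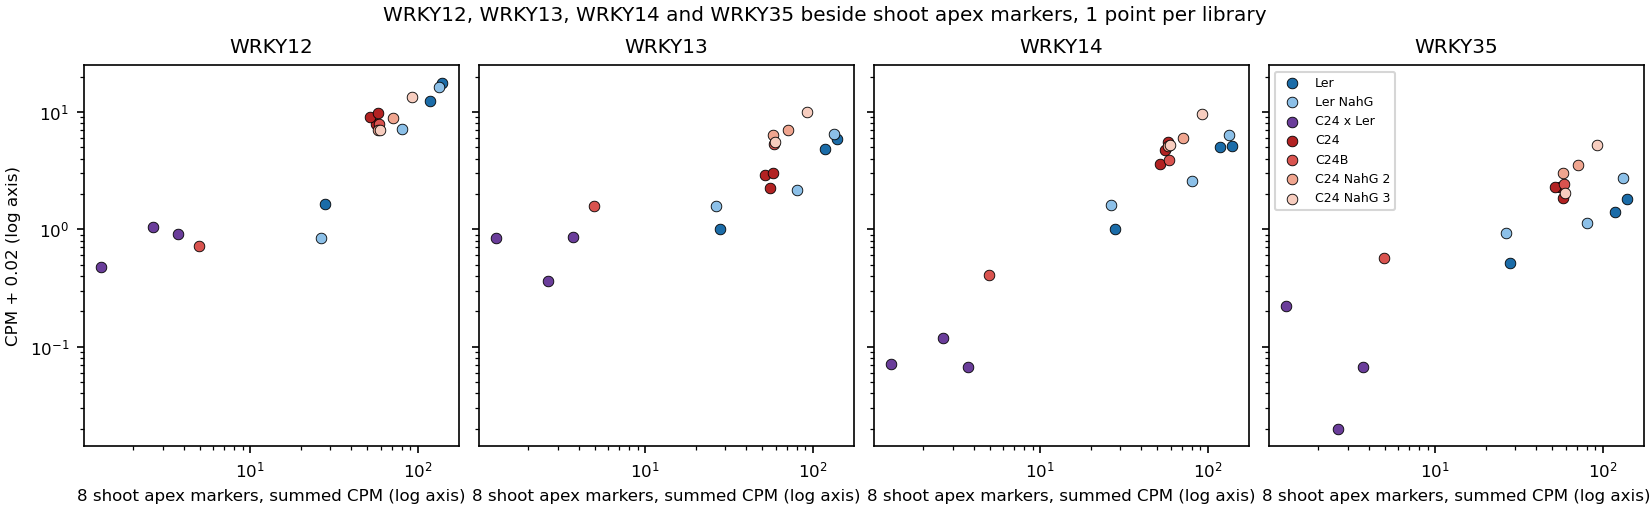
Level of WRKY12, WRKY13, WRKY14 and WRKY35 (CPM + 0.02, log axis) against the summed level of 8 shoot apex markers (CPM, log axis), with 1 point per library and colours by group. The 3 hybrid libraries, at 1.28 to 3.71 CPM of markers, and C24B replicate 1, at 4.94 CPM, lie at the lower left of every panel.

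Among other genes below the mid-parent, WRKY75 and WRKY31 were low in Ler as well. WRKY75 (AT5G13080) had 3 reads in the hybrid, 336 in C24 and 21 in Ler, a ratio to C24 of 89.5 (counting interval 30.4 to 436), and differed from the mid-parent by -4.41 ± 1.02 (adjusted p = 0.0094). WRKY31, at 0, 0.146 and 0.047 CPM, differed by -3.86 ± 0.65 (adjusted p = 0.002), from 4.82, 4.03 and 2.80 CPM in C24 and 0.492, 0.158 and 0.159 in Ler. WRKY28, a factor linked to the expression of the SA synthesis gene ICS1, was at 0.408, 0.244 and 0.188 CPM and differed by -1.53 ± 0.498 (adjusted p = 0.04), a call lost in 9 of 14 alternatives. It was at 0.341, 0.823 and 0.575 CPM in C24 and at 1.65, 0.434 and 1.35 in Ler, so its parents overlapped and every hybrid library was below those of Ler. WRKY60 differed by -0.66 ± 0.155, WRKY50 by -0.79 ± 0.167 and WRKY6 by -0.86 ± 0.204. WRKY45 differed by -1.81 ± 0.255.

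Genes known to act upstream, beside and downstream of WRKY factors were read from lists. The first held 18 genes of SA synthesis and signalling. In Ler NahG 4 of them were lower, NPR4, NIMIN1, SARD1 and NIMIN-2, and in each C24 line 14 were lower, with none higher in either accession. Of all genes tested, 0.502% were lower in Ler NahG, 7.1% in line 2 and 8.16% in line 3. NPR4, an SA receptor, was at 28.1 ± 3.21 CPM in Ler and 12.5 ± 0.799 in Ler NahG (SD, n = 3). It was at 64.4 ± 9.92 CPM in C24B and 14.9 ± 0.907 in line 2 (SD, n = 2). NIMIN1, an NPR1-interacting repressor, fell by 3.93 in Ler NahG and by 6.50 in line 2 on the log2 scale. In C24 16 of the 18 were higher than in Ler, PAD4, a regulator of SA build-up, by 2.61. Of all genes 22.6% were higher in C24. In the hybrid 13 were above Ler, 15 below C24, 1 above the mid-parent (NPR4) and 4 below it. The shares of all genes were 15.8%, 19.3%, 15.5% and 11.5% in that order. EDS16, the SA synthesis enzyme also called ICS1, was at 56.7 ± 2.95 CPM in C24, 10.0 ± 0.748 in Ler and 14.5 ± 2.51 in the hybrid.

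The second list held 9 genes of the MAP kinase cascades that phosphorylate WRKY factors. MEK1, also called MKK1, was the only one lower in Ler NahG, by -1.03 on the log2 scale, and 6 and 7 were lower in the C24 lines. The shares of all genes were 0.502%, 7.1% and 8.16%. MEK1 was at 65.4 ± 3.84 CPM in C24, 15.7 ± 3.60 in Ler and 46.8 ± 9.11 in the hybrid. It was the only one of the 9 called against the mid-parent, at 0.55, where 27.1% of all genes were called. Of 13 genes for VQ-motif proteins, which bind WRKY factors, 10 were tested, and SIB1, a partner of WRKY33, was the only one called in Ler NahG, at -3.54. SIB1 was at 79.0 ± 17.7 CPM in C24B, 1.70 ± 1.01 in line 2 and 1.47 ± 0.25 in line 3 (SD, n = 2). In each C24 line 3 of the 10 were lower, and 5 were higher in C24 than in Ler. Of all genes 0.59% were called in Ler NahG, 7.1% and 8.16% were lower in the lines, and 22.6% were higher in C24.

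The last list held 8 genes reported as targets of WRKY factors. None was called in Ler NahG with edgeR, where PR1 came nearest (adjusted p = 0.09), and 5 and 6 were lower in C24 NahG 2 and C24 NahG 3. Of all genes 7.1% and 8.16% were lower in these lines. PR1, a marker of SA defence, was at 2600 ± 252 CPM in C24, 12.7 ± 13.7 in Ler and 7.09 ± 2.75 in the hybrid (SD, n = 3). It was at 915 ± 249 CPM in C24B, 0.471 ± 0.073 in line 2 and 0.339 ± 0.0429 in line 3 (SD, n = 2). PAD3, the last enzyme of camalexin synthesis and a target of WRKY33, was at 97.7 ± 25.8 CPM in C24, 1.66 ± 2.07 in Ler and 1.11 ± 0.542 in the hybrid. Against the mid-parent 6 of the 8 were below and none above, PR1 by -4.67 and PAD3 by -3.48. Of all genes 11.5% were below and 15.5% above. In the same hybrid libraries WRKY70, WRKY54 and WRKY33 were above Ler, with WRKY33 also below C24, whereas WRKY18, WRKY40, WRKY46 and WRKY53 stood near Ler. A link between these factors and the listed targets was not tested.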

How the data were processed

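Gene counts were used as deposited, 1 whole-number count per gene and library for 37336 genes in 18 libraries. STAR 2.5.3, the TAIR10 build and DESeq2 are named in the submitters' processing notes, per the labels. How reads were counted, whether strand was used and which annotation served is not given in the sources used here. Antisense partners and overlapping genes therefore cannot be told apart. Each deposited table also held 5 rows outside genes, left out of every step. Per library they held 3.47 to 4.85% ambiguous, 0.256 to 0.523% unassigned, 1.37 to 2.42% multimapping and 2.76 to 10.3% unmapped reads, so members with close copies are uncertain.

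The members, the lists and the tests were chosen with earlier results of these data known. Values by library were given for genes fixed by a rule: a set of 15 known SA and senescence members, those called in Ler NahG, the 10 lowest in both C24 lines, the 5 highest and 5 lowest called between parents and against the mid-parent, and the 5 of lowest adjusted p for the difference of NahG effects. WRKY8, WRKY13, WRKY15, WRKY39, WRKY44, WRKY45 and WRKY48 were named in addition, after their values were seen.

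The first set (12 libraries) and the later set (6) were fitted separately with 1 coefficient per group, and all 18 together for the difference of NahG effects. Genes were filtered with filterByExpr by group, scaled by TMM and tested with edgeR 4.0.16 (quasi-likelihood F test, R 4.3.3, limma 3.58.1), with Benjamini-Hochberg adjustment over all genes tested. CPM values are scaled by TMM library sizes within a set. They are not per length, so levels were compared between groups, not between genes. SE was derived from each log2 fold change and its F statistic. The test was tried on simulated counts with known changes. Their spread followed the trend over genes and not each gene's own, and no result here rests on that trial. P-values cover the spread between pools of plants, and 95% intervals of read ratios cover counting error alone. For a group with 0 reads the fold was computed as if it had 3 counts.

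Alternatives were DESeq2 1.42.0 with its size factors, RLE factors, no filter, a replicate block, the compared groups alone, and leaving out each library. Symbols and upstream sequences came from RefSeq TAIR10.1, matched by locus identifier for 37051 rows. TAIR10.1 is not the build name in the notes, and the count tables hold no coordinates. The TGACG search, and the counts over members that reached the level limit in Ler or Ler NahG, were added after values were seen.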

Additional observations from a re-analysis of the deposited data

Results flagged for a closer look

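The NahG effect differed between the accessions for 7 WRKY genes, by the test of the difference itself in a fit of all 18 libraries, and each is given as the log2 effect in C24 minus that in Ler. The difference was -2.22 for WRKY60, -2.58 for WRKY25, -2 for WRKY6, -0.71 for WRKY4, -2.09 for WRKY26, -1.65 for WRKY8 and -1.83 for WRKY53. WRKY60 fell by 1.98 in the C24 lines and stood 0.24 higher in Ler NahG, a difference that did not pass in Ler. WRKY26, at 4.16 and 6.76 CPM in C24B, was at 0.959 to 2.49 CPM in the NahG lines, whereas in Ler it was at 2.62 to 2.65 CPM and in Ler NahG at 2.74 to 4.12. WRKY8 lost its call in 8 of 16 alternatives and WRKY53 in 12 of 16. The C24 NahG lines were sequenced at a later stage than Ler NahG, so the accession and the stage cannot be told apart in this contrast. No group had 4 or more libraries, so no single library was tested as standing apart.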

How the results depend on the processing

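Counts of called members moved by over 1.5 times with DESeq2, which gave 5 in Ler NahG (3 in the main test, with WRKY33 and WRKY46 added) and 11 for the difference of NahG effects (7 in the main test). Leaving out 1 library gave 2 to 5 members in Ler NahG, 11 to 21 in line 2, 11 to 25 in line 3, 15 to 26 in both lines together and 5 to 16 for the difference. It gave 27 to 32 between the parents, 11 to 22 against the mid-parent, 28 to 32 against C24, 10 to 23 against Ler and 4 to 7 below both parents. Of these, the counts over 1.5 times from the main one were 5 in Ler NahG without Ler replicate 2, 11 in line 3 and 15 in both lines without C24 NahG 3 replicate 2, 16 for the difference without Ler replicate 1, 11 against the mid-parent without hybrid replicate 1, and 10, 12 and 12 against Ler without Ler replicate 3 and hybrid replicates 1 and 2. The cause was not tested. Where a group was left with 1 library, that library was taken to vary like the other groups.

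Same-numbered replicates did not deviate together throughout (correlations of -0.22 to 0.52 in the first set, 4 of 18 over 0.1, and 0.02 to 0.19 in the later one, 4 of 6 over 0.1), so the numbers were not taken as a pairing. A replicate block gave 3, 17, 20, 23, 6, 30, 21, 34, 19 and 6 called members in the same order of comparisons.

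Over the kept members in 102 refits of single comparisons, 214 calls were lost and 112 gained, of which 22 and 42 came from alternatives other than leaving out 1 library. Of 2270 values of called genes and of the uncalled ones named in the text, 2019 kept direction and side of the threshold, 213 lost the call, 25 gained it and 13 changed sign, none of them called. Each of the 13 came from leaving out 1 library. In Ler NahG, WRKY18 ranged from -0.68 to 0.02, above 0 without Ler replicate 1. Against the mid-parent, WRKY26 was at 0.02 without hybrid replicate 2, and WRKY33 ranged from -0.23 to 0.17, above 0 without Ler replicate 1 (0.17) and without hybrid replicates 2 and 3 (0.01 and 0.03). In the hybrid against Ler, WRKY18 ranged from -0.28 to 0.51, WRKY40 from -0.08 to 0.87, WRKY46 from -0.44 to 0.19 and WRKY53 from -0.17 to 0.5. Genes with few reads, such as WRKY62 in Ler with 2 reads, are limited by depth.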

Other observations

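The upstream windows were also counted by response. Of the 16 members lower in both C24 NahG lines, 8 held a W box (50%) and 5 held 2 or more (31.2%). Of the 35 other kept members 13 held one (37.1%) and 4 held 2 or more (11.4%), beside 32.3% and 7.91% of all protein-coding windows. TGACG was found in 4 of the 16 (25%) and 7 of the 35 (20%). WRKY30 held 3 W boxes, as did WRKY33, and WRKY38, lower in all 3 NahG groups, held neither motif. No test was made on these counts.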
